A study of Mus musculus with 7 samples.

Results

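The Hox genes are homeobox transcription factor genes that lie side by side in 4 clusters and are numbered by paralog group along each cluster. All 38 Hox genes on the list used here were found by gene symbol among the 27179 genes of the deposited count table, 10 in the Hoxa cluster on chromosome 6, 10 in the Hoxb cluster on chromosome 11, 9 in the Hoxc cluster on chromosome 15 and 9 in the Hoxd cluster on chromosome 2. A further gene of the Hoxa cluster was not analysed here, so every sum below is over the listed genes only. Reads come from chromatin immunoprecipitation and sequencing (ChIP-seq) with an anti-V5 antibody on C57BL/6 mouse embryos at E10.5, from which the first and the second pharyngeal arches were taken. The V5 group holds 3 ChIP libraries from embryos with the Kat6a-V5 fusion, in which a Flag-V5-BIO tag was recombined in frame into the carboxy terminus of the Moz locus, so that MOZ (KAT6A) is tagged at its own locus. By the series' design text the tag was carried on both copies and such mice are viable and fertile. The wild-type (WT) group holds 3 ChIP libraries from untagged arches, which lack the V5 epitope and serve as the negative control. The input is 1 library of tagged arches with no antibody, and it has no WT counterpart. The labels do not tell if replicates came from different embryos, and p-values therefore cover only the spread among these libraries, part of which may be technical.

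Hox genes are switched on in the order of their position in the cluster, low paralog numbers first and closest to the head, and their proteins give cells along the body axis a positional identity. In the pharyngeal region the first arch is free of Hox expression, the second arch is patterned by Hoxa2 and its paralog Hoxb2, and arches behind it also use paralog group 3. MOZ is a histone acetyltransferase of the MYST family, and loss of MOZ in the mouse alters Hox expression and the identity of body segments. High paralog numbers, such as the posterior groups 9 to 13, pattern the trunk, limbs, tail and urogenital tract and are held silent in head tissue by Polycomb proteins.

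Depth was 806648 gene counts in V5 replicate 1, 1138431 in replicate 2 and 3286602 in replicate 3, beside 1288732, 1327452 and 2504595 in WT and 3488745 in the input. All library pairs differed by more than sampling noise (chi-square over genes divided by its degrees of freedom, where 1 would be noise alone). The value was lowest, 4.03, for replicate 3 of V5 and replicate 3 of WT. It was 9.45 to 10.2 within the V5 group and 4.93 to 5.46 within the WT group, so that V5 replicates 1 and 2 stood apart from the other ChIP libraries, and values without a library are given where they move a result. Values per gene are raw counts or CPM (counts per 1e6 counts of the library). A gene at 0 counts could still have up to 3.72 CPM in V5 replicate 1, the shallowest library, and 0.913 in V5 replicate 3, by counting error alone (a limit of 3 counts).

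Hox genes are short and close together, and several share part of their span with a neighbour. Together the 38 genes hold 0.0219% of the summed gene length of the table and took 0.0148% to 0.0293% of the reads of a library. Hoxa4, Hoxa5 and Hoxa6 lie wholly inside the span of Hoxa3, as Hoxd4 lies inside Hoxd3, and these 4 genes had 0 counts in all 7 libraries, the input included. Their 0 therefore gives no level. Hoxb4 lies inside the RefSeq span of Hoxb3 but did have reads, and the deposited length of Hoxb3 (24805 bp) is shorter than that span (40830 bp). Of the 38 genes, 26 overlap no other gene of the table in RefSeq GRCm38.p6, and for 22 the deposited length is within 1% of the whole gene span. For the others only part of the span was counted, as in Hoxc6, with 2320 bp of 13657. The counts do not separate strands.

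A count over a gene leaves out the DNA upstream of its span. RefSeq windows of the 250 bases before an annotated start (GRCm38.p6) were at hand for 22 of the 38 genes, in 24 windows. Some of these starts lie inside the gene's own span, as for Hoxb8 and a window of Hoxa10. Others lie inside a neighbour, as for Hoxa5 in Hoxa3, so not every window is DNA outside the counted genes. They held a median of 12.5 CpG dinucleotides (2 to 35), beside 6 over all 32851 windows of that length. The windows of 3 genes on which the text below turns are shown 5′ to 3′ on the strand of the gene with every CpG in capitals: Hoxa2, which selects second arch identity (chr6:52164832-52165081, minus strand, 6 CpG), Hoxd3, the Hox gene with the most ChIP reads (chr2:74711743-74711992, plus strand, 12 CpG), and Hoxd9, in which the V5 and WT libraries did not overlap (chr2:74697513-74697762, plus strand, 13 CpG).
Hoxa2: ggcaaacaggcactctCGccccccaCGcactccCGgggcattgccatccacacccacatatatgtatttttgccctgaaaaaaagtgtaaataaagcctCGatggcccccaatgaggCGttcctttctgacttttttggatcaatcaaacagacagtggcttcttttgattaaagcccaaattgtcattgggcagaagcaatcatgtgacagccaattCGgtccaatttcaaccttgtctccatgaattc
Hoxd3: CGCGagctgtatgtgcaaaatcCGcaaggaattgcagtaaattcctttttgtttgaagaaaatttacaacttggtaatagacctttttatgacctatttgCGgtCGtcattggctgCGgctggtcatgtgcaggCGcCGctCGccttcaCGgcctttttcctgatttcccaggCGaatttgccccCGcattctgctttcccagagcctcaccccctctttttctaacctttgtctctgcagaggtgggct
Hoxd9: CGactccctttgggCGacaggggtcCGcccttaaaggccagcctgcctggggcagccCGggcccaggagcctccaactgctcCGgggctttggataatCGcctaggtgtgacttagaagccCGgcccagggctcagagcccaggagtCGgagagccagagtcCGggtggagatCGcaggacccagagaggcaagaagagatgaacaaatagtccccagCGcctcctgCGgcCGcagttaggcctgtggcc
The windows differ in make-up. Hoxa2 has a GC content of 46.4%, Hoxd3 of 49.2% and Hoxd9 of 65.2%. The motif TGATNNAT, the composite site of PBX and HOX proteins, was searched on both strands. It occurred in 4 of the 24 Hox windows (16.7%), beside 7.68% of all windows, and a match describes letters only. Among them were Hoxa2, with ATCAATCA on the gene's strand, and Hoxb1, the paralog group 1 gene of the hindbrain, with TGATGGAT.

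The first question was whether Hox genes carried more reads with tagged MOZ than in the negative control. Summed over the 38 genes, the V5 libraries had 213, 293 and 159 CPM (172, 333 and 521 counts) and the WT libraries 165, 156 and 148 CPM (212, 207 and 370 counts). V5 replicates 1 and 2 lay above every WT library, while V5 replicate 3, the deepest ChIP library, lay inside the WT range. The means were 221 ± 67.4 and 156 ± 8.39 CPM (SD, n = 3), a ratio of 1.42. It was 1.19 without V5 replicate 2 and 1.62 without V5 replicate 3. Counts summed over a group and divided by its summed library totals, which weighs deeper libraries more, gave 1.27. The input stood between the means at 189 CPM (exact Poisson 95% interval 174 to 204, counting error only). A sum over genes chosen with earlier results of these data known has no test here.

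**Figure D1:**
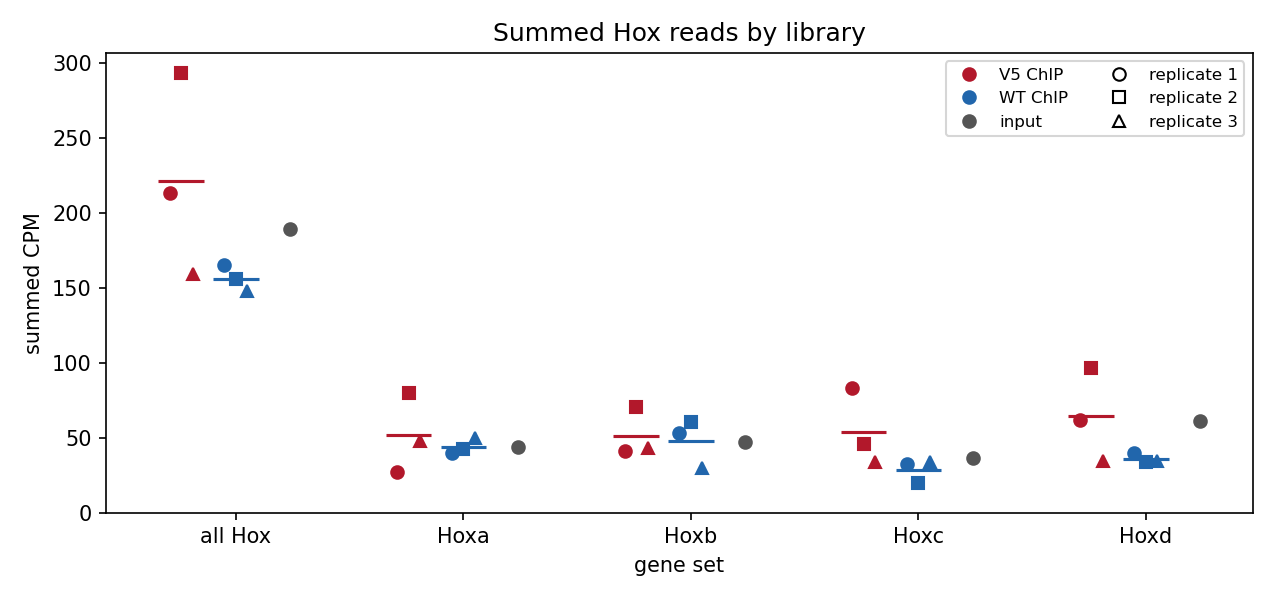
Summed CPM of all 38 Hox genes and of each cluster (x axis) in every library (y axis, CPM), with V5 ChIP in red, WT ChIP in blue and the input in grey; marker shapes are replicates and short lines are group means. V5 replicate 2 is the highest library for all Hox genes (293 CPM) and for every cluster but Hoxc, where V5 replicate 1 is (83.1 CPM).

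The V5 to WT ratio was above 1 in each of the 4 clusters, and in each the groups overlapped. Hoxc genes had 83.1, 45.7 and 33.5 CPM in V5 replicates 1 to 3 and 32.6, 19.6 and 33.5 in WT, a ratio of 1.89. Hoxd genes had 62.0, 96.6 and 34.4 CPM against 39.6, 33.9 and 34.3, a ratio of 1.79. In both clusters replicate 3 of the V5 group was at the WT level. Hoxa genes had 27.3, 79.9 and 47.8 CPM against 39.6, 42.2 and 49.9, a ratio of 1.18 that fell to 0.855 without V5 replicate 2. Hoxb genes had 40.9, 70.3 and 42.9 CPM against 52.8, 60.3 and 29.9, a ratio of 1.08 that fell to 0.879 without V5 replicate 2. The ratio in Hoxc was 1.39 without V5 replicate 1, and that in Hoxd was 1.34 without V5 replicate 2. From summed counts over summed library totals the ratios were 1.14 in Hoxa, 1.11 in Hoxb, 1.47 in Hoxc and 1.47 in Hoxd. No test of a difference between clusters was made.

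By position, paralog groups 1 to 3 (7 genes) had 102, 87.8 and 67.5 CPM in V5 and 74.5, 54.2 and 62.3 in WT, a ratio of 1.35. The central groups 4 to 8 (15 genes, 4 of them uncounted inside their neighbours) had 27.3, 69.4 and 33.5 against 23.3, 46.7 and 24.0, a ratio of 1.39. The posterior groups 9 to 13 (16 genes) had 84.3, 135 and 57.5 against 66.7, 55.0 and 61.5, a ratio of 1.51. The 3 classes thus gave similar ratios, each with overlapping groups, and no gradient along the clusters is read from them. Without V5 replicate 2 the central ratio was 0.970 and the posterior ratio 1.16. From summed counts over summed library totals the 3 classes, in the same order, had ratios of 1.22, 1.36 and 1.29.

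**Figure D2:**
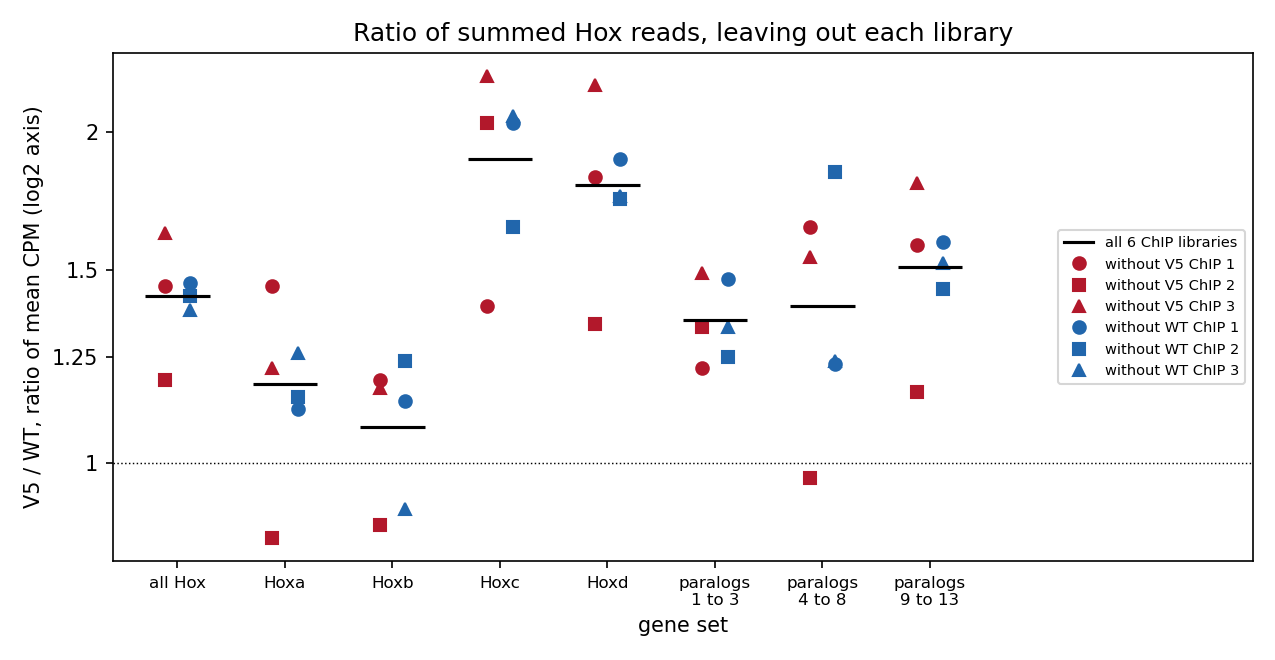
Ratio of mean CPM, V5 to WT (y axis, log2 scale), for sums over all Hox genes, each cluster and each position class (x axis); black lines use all 6 ChIP libraries, and each marker leaves out the named library. The ratio of all Hox genes ranges from 1.19 to 1.62, and those of Hoxa, Hoxb and paralog groups 4 to 8 drop below 1 without V5 replicate 2.

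Gene by gene, 6 of the 38 Hox genes had enough reads for the edgeR quasi-likelihood test over 14575 genes, and 0 of them passed at an adjusted p of 0.05, as did 0 of all genes (0% in either direction, with 600 genes at an unadjusted p under 0.05 and 0 of them Hox genes). Their adjusted p-values were 0.980 to 0.999. Without a filter on low counts 34 Hox genes could be fitted, and 0 had an unadjusted p under 0.05, where 3.51% of 24447 genes did so with more reads in V5 and 1.99% with fewer; DESeq2 gave 1 of 34, Hoxc6, where 3.09% of all genes had an unadjusted p under 0.05 with more reads in V5 and 4.29% in either direction. DESeq2 called 0 genes of the whole table, and limma-voom called 4 genes, 0 of them Hox genes. Among the 28 Hox genes with at least 20 ChIP counts, 18 had a V5 to WT ratio above 1, as did 49.7% of 20194 genes with as many counts, and the median ratio was 1.55 beside 0.997 over all such genes. Without V5 replicate 2 it was 14 of 28 with a median of 0.979 (all genes 45.9% and 0.962), and without V5 replicate 3 it was 17 of 28 with a median of 1.92 (all genes 46.7% and 0.956).

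**Figure D3:**
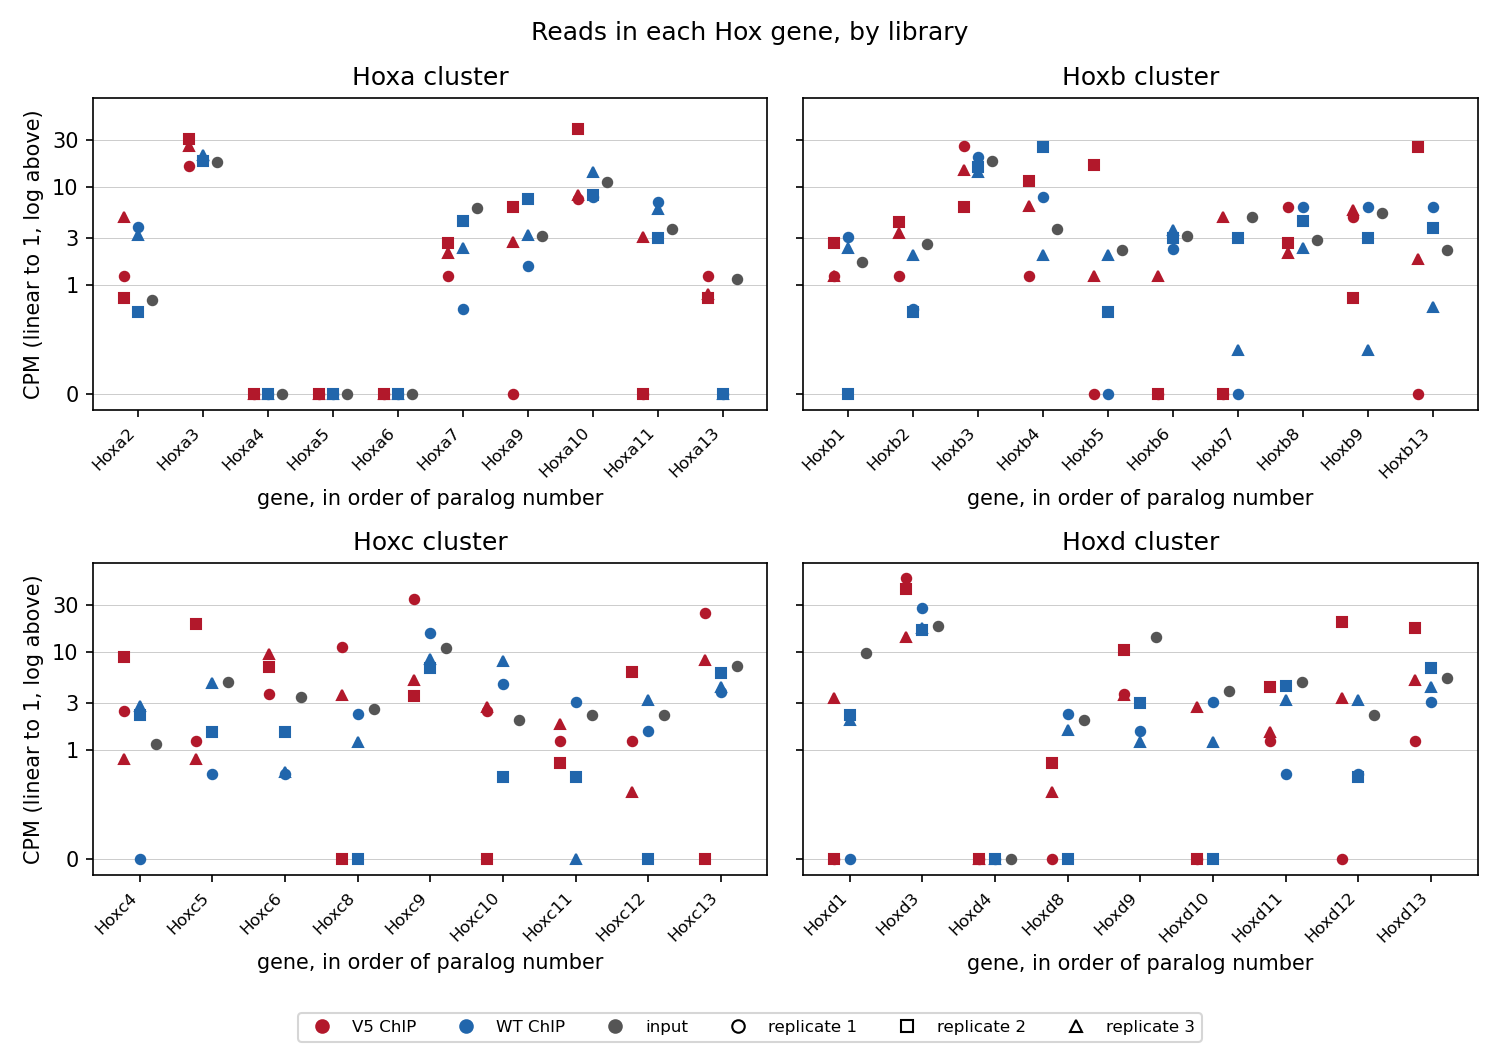
CPM of each of the 38 Hox genes (y axis, linear to 1 and logarithmic above) in the order of the paralog number (x axis), in 1 panel per cluster; V5 ChIP is red, WT ChIP blue and the input grey, with marker shapes for replicates. Hoxa3, Hoxb3 and Hoxd3 carry the most reads, and V5 replicate 2 stands alone in genes such as Hoxa10 (38.6 CPM) and Hoxb13 (25.5 CPM).

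Of the Hox genes that belong to the arches and the hindbrain, none stood apart between the groups. Hoxa2 (GeneID 15399, chromosome 6, 52162417 to 52164831 in mm10) had 1, 1 and 16 counts for V5 and 5, 1 and 8 in WT, with 3 in the input. In CPM that is 1.24, 0.878 and 4.87 against 3.88, 0.753 and 3.19, a ratio of 0.893, and the groups overlapped. Hoxb2 (GeneID 103889, chromosome 11, 96351632 to 96354020), its paralog in the hindbrain and second arch, had 1, 5 and 11 counts against 1, 1 and 5 and 9 in the input. The V5 mean of 2.99 ± 1.61 CPM was 2.55 times the WT mean of 1.18 ± 0.711 (SD, n = 3), but V5 replicate 1 at 1.24 CPM lay below WT replicate 3 at 2.00. At 24 reads over 6 ChIP libraries the gene had too few reads for the main test. In edgeR without a filter its unadjusted p was 0.413.

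The 2 listed genes of paralog group 1 were sparsely read, with 18 counts for Hoxb1 and 19 for Hoxd1 summed over the ChIP libraries. Hoxb1, which gives rhombomere identity to the hindbrain, had 1, 3 and 4 counts for V5, 4, 0 and 6 in WT and 6 in the input. Hoxd1, which acts in sensory neurons, had 0, 0 and 11 counts against 0, 3 and 5. Its input held 34 counts, or 9.75 CPM, above the 0 to 3.35 CPM of every ChIP library. The 2 genes thus had no direction between V5 and WT at this depth.

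Paralog group 3 carried the most reads, and its genes are the longest of the 38. Hoxd3 (GeneID 15434, chromosome 2, 74711993 to 74748271), which patterns the upper neck vertebrae, had 45, 49 and 46 counts for V5, 36, 22 and 44 in WT and 64 in the input. In CPM the V5 libraries stood at 55.8, 43.0 and 14.0 and the WT libraries at 27.9, 16.6 and 17.6, so that replicates 1 and 2 of V5 were above all WT libraries and replicate 3 below all of them. Its log2 difference, V5 against WT, was 0.88 (SE 0.55, edgeR quasi-likelihood adjusted p = 0.980), 1.32 without V5 replicate 3 (adjusted p = 0.451) 0.41 without V5 replicate 1 and 0.19 with limma-voom. It overlaps Hoxd4, Hoxd3os1 and Mir10b over 31.2% of its span, where reads were apparently not assigned.

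Hoxa3 (GeneID 15400, chromosome 6, 52169059 to 52213067), needed for the thymus and parathyroids, had 13, 35 and 85 counts against 24, 24 and 53 and 62 in the input. That is 16.1, 30.7 and 25.9 CPM against 18.6, 18.1 and 21.2, with V5 replicate 1 below and replicates 2 and 3 above the WT libraries. The log2 fold change was 0.35 (SE 0.53, adjusted p by edgeR = 0.988). Hoxb3 (GeneID 15410, chromosome 11, 96307101 to 96347930), a paralog expressed in the hindbrain, had 21, 7 and 49 counts against 26, 21 and 35 and 64 in the input, or 26.0, 6.15 and 14.9 CPM against 20.2, 15.8 and 14.0. Its V5 values spread on both sides of the WT range (log2 fold change -0.06, SE 0.66, adjusted p by edgeR = 0.999), and the sign turned without V5 replicate 2 (0.32), V5 replicate 3 (0.01) or WT replicate 1 (0.10). Per kb of the deposited length, Hoxa3, Hoxb3 and Hoxd3 had 0.438, 0.671 and 0.570 CPM in WT and 0.404, 0.740 and 0.506 in the input, under the median of the 28 Hox genes with at least 20 ChIP counts (0.827 and 1.02). Per kb of the span that no neighbour shares, Hoxa3 had 0.732 CPM in WT and Hoxd3 0.829.

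Among the central genes, Hoxb4 (GeneID 15412, chromosome 11, 96318267 to 96321638), known from the neck vertebrae and blood stem cells, had 1, 13 and 21 counts for V5 and 10, 34 and 5 in WT, with 13 in the input. WT replicate 2 alone, at 25.6 CPM, set the mean of its group, and the log2 fold change of -0.82 (SE 0.92, adjusted p by edgeR = 0.984) became 0.45 without it and 0.17 with limma-voom. Hoxc6 (GeneID 15425, chromosome 15, 102998226 to 103011882), a gene of the forelimb level, had 3, 8 and 31 counts for V5, 1, 2 and 2 in WT and 12 in the input. In CPM it stood at 3.72, 7.03 and 9.43 against 0.776, 1.51 and 0.799, a ratio of 6.55 with every V5 library above every WT library. Like the V5 libraries, the input exceeded each WT library, and its 3.44 CPM was just under V5 replicate 1. In DESeq2 the unadjusted p of Hoxc6 was 0.0297 and its adjusted p 1.00, and in edgeR without a filter its unadjusted p was 0.0503.

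Hoxb6 (GeneID 15414, chromosome 11, 96292814 to 96301569), a trunk gene, went the other way with 0, 0 and 4 counts for V5, 3, 4 and 9 in WT and 11 in the input. Its 0, 0 and 1.22 CPM were below 2.33, 3.01 and 3.59. However, a count of 0 allows up to 3.72 CPM in V5 replicate 1 and 2.64 in V5 replicate 2. The groups therefore need not be apart at this depth. Hoxc6 and Hoxd9, described next, were the 2 of 28 genes (7.14%) with V5 wholly above WT, where 4.58% of 20194 genes with as many counts were so. Hoxb6 was the 1 of 28 (3.57%) wholly below, where 5.02% were. These shares are near the background, and with so few genes they single out no result for the Hox family. Wholly above were 5 genes without V5 replicate 1 (all genes 11.2%) and 4 without V5 replicate 2 (9.13%). Wholly below were 2 without V5 replicate 1 (8.06%), 2 without V5 replicate 3 (17.6%) and 3 without WT replicate 2 (9.85%).

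Among the posterior genes, Hoxd9 (GeneID 15438, chromosome 2, 74697763 to 74700208), which acts in the limb bud, had 3, 12 and 12 counts for V5 and 2, 4 and 3 in WT. That is 3.72, 10.5 and 3.65 CPM against 1.55, 3.01 and 1.20, a ratio of 3.11 with a narrow gap between V5 replicate 3 and WT replicate 2. The input held 49 counts, or 14.0 CPM, above every ChIP library of either kind. Hoxa10 (GeneID 15395, chromosome 6, 52231197 to 52240854), a gene of the lumbar spine and uterus, had 6, 44 and 27 counts against 10, 11 and 35 and 39 in the input. V5 replicate 2 stood at 38.6 CPM and the other 5 ChIP libraries at 7.44 to 14.0, and the log2 fold change of 0.84 (SE 0.73, adjusted p by edgeR = 0.980) turned to -0.33 without that library and was 0.11 with limma-voom. Hoxc9 (GeneID 15427, chromosome 15, 102977032 to 102984444), which sets thoracic motor neuron identity, had 28, 4 and 17 counts against 20, 9 and 21 and 38 in the input. Here V5 replicate 1 was the high library with 34.7 CPM, and the log2 fold change of 0.51 (SE 0.85, adjusted p by edgeR = 0.988) turned to -1.21 without it and to -0.59 with limma-voom.

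Of the other genes with at least 20 ChIP counts, Hoxb5, Hoxb13, Hoxc5, Hoxc13 and Hoxd12 had V5 to WT ratios of 2.31 to 6.51 and are taken up below. The remaining 12 had ratios from 0.190 to 4.20, 6 of them above 1 and 6 below, and the groups overlapped in every one. Lowest was Hoxa11, a gene of the forearm and uterus, with 0, 0 and 10 counts for V5 against 9, 4 and 15 for WT. Highest was Hoxc8, which acts in brachial motor neurons, with 9, 0 and 12 against 3, 0 and 3. Below 20 ChIP counts stood Hoxa13, Hoxb1, Hoxc11, Hoxd1, Hoxd8 and Hoxd10, with 5 to 19 counts over the 6 libraries, beside the 4 genes at 0. Hoxa13, a gene of the digits and urogenital tract, had 1, 1 and 3 counts in the V5 group and 0 in each WT library. Its V5 values of 0.878 to 1.24 CPM lay within the 2.33 and 2.26 CPM that a count of 0 allows in WT replicates 1 and 2. The highest, 1.24 in V5 replicate 1, was just above the 1.20 CPM allowed in WT replicate 3.

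The V5 libraries were uneven from gene to gene. V5 replicate 2 was the highest ChIP library in 11 of the 28 genes (39.3%), beside 24.2% of 20194 genes. Of the 34 Hox genes that had any ChIP reads, it had 0 counts in 8. V5 replicate 1 had 0 counts in 10, and WT replicates 1 to 3 in 5, 6 and 2. No share of zeros over all genes is set beside these counts. Genes picked after their values were seen show the pattern. Hoxb13, a gene of the tail and prostate, had 29 counts in V5 replicate 2, 0 in replicate 1 and 6 in replicate 3. Hoxc5 had 22 counts in V5 replicate 2 beside 1 and 3, Hoxb5 had 19 beside 0 and 4, and Hoxd12, a digit gene, had 23 beside 0 and 11. Hoxc13, a gene of hair and nails, had the reverse with 20, 0 and 27. V5 replicate 3 had at least 1 read in all 34 genes. V5 replicates 1 and 2 are the shallowest of the 7 libraries, and the part of depth in this spread was not tested.

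The next question was how the ChIP libraries compare with chromatin before immunoprecipitation. The 38 genes together stood at 1.17 times the input in V5 and 0.827 times in WT. Per cluster the WT ratio was 1.00 for Hoxa, 1.01 for Hoxb, 0.779 for Hoxc and 0.591 for Hoxd, and the V5 ratio was 1.18, 1.09, 1.47 and 1.06. Without V5 replicate 2 the V5 ratio was 0.986 for all 38 genes, 0.856 for Hoxa, 0.886 for Hoxb and 0.793 for Hoxd, so that the side of the input on which these V5 sums lay rested on that library. Hoxc kept a V5 ratio of 1.08 to 1.75 when any 1 V5 library was left out. In Hoxd the input stood at 60.8 CPM, V5 replicate 2 above it at 96.6, V5 replicate 1 close to it at 62.0, and V5 replicate 3, at 34.4 CPM, and the 3 WT libraries below it. Over the Hoxd genes that overlap no other gene, the V5 ratio was 0.698 and the WT ratio 0.327. Most input counts of that sum came from Hoxd9 (49) and Hoxd1 (34), beside 7, 8 and 19 for Hoxd8, Hoxd12 and Hoxd13. These low ratios therefore lean on 2 genes and give no level for the whole cluster. The 2 comparisons share the 1 input, so its own error enters both, and there is no replicate of it.

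**Figure D4:**
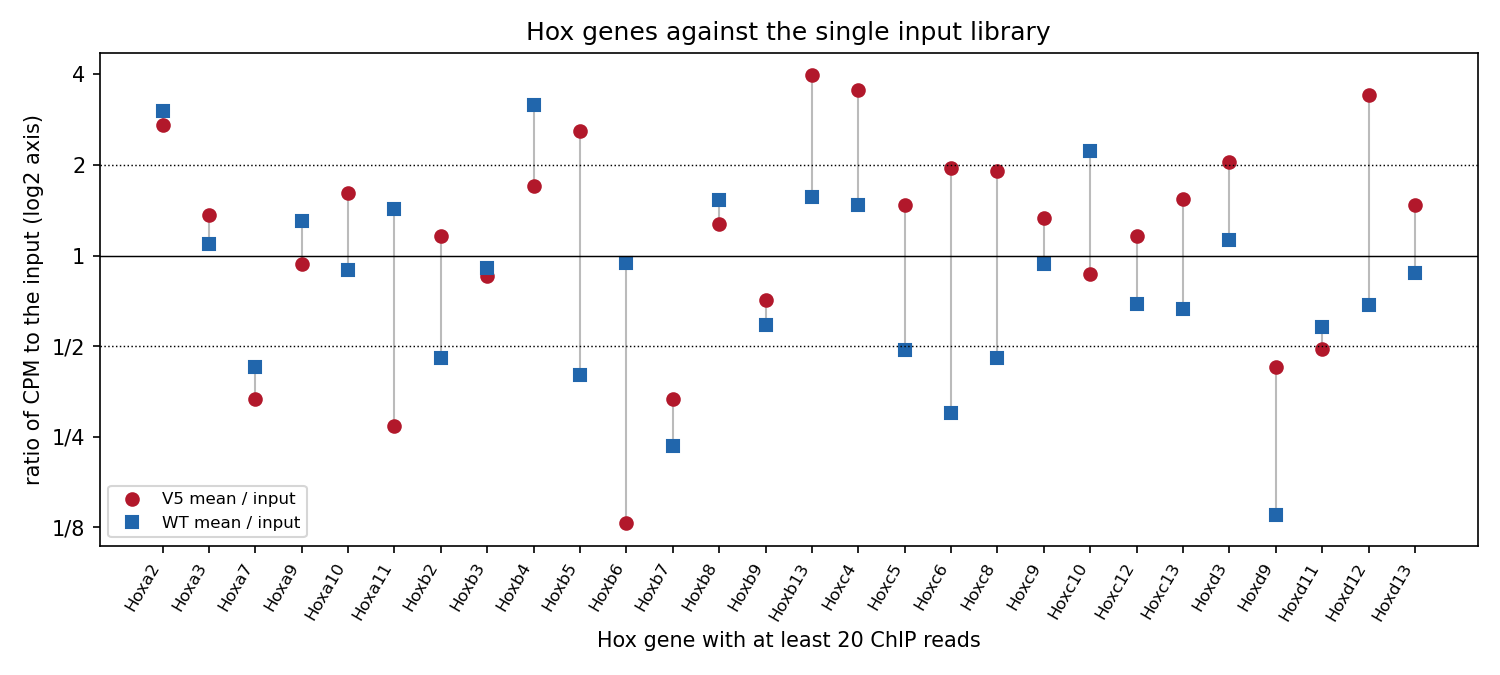
Ratio of the group mean CPM to the single input (y axis, log2 scale) for the 28 Hox genes with at least 20 ChIP counts (x axis), V5 as red circles and WT as blue squares; dotted lines mark 2-fold. In V5, 6 genes lie above 2-fold and 6 under 1/2, and in WT 3 and 8.

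Of the 28 genes, 6 were over 2 times the input in V5 (21.4%), beside 12.4% of 20052 genes, and 3 in WT (10.7%), beside 10% (background shares for genes with at least 20 ChIP counts and any input count). Under 1/2 of the input were 6 in V5 (21.4%), beside 11.4%, and 8 in WT (28.6%), beside 9.44%. The medians were 1.35 and 0.885 for the Hox genes, and 1.03 and 1.00 for all genes. Hoxb13 had the highest V5 ratio at 3.97, from V5 replicate 2, and Hoxb4 the highest WT ratio at 3.16, from WT replicate 2. Hoxa2 was above 2 in both groups, with 2.71 in V5 and 3.03 in WT, on 3 input counts. Hoxd9 was under 1/2 in both, with 0.425 and 0.137. The input of Hoxd9 was 5.74 CPM per kb, and that of Hoxd1 was 4.51, where the median of the Hox genes was 1.02 and that of all genes 0.876 (CPM per kb of deposited length).

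Hox cofactors and regulators, a list of 29 genes in the table, had 20 tested members, 13 with a positive log2 fold change, 0 called higher and 0 called lower, where 0% of all tested genes were called. Their median was 0.06, beside 0.02 over all genes. The lowest p-values among positive changes belonged to the retinoic acid receptor gene Rarg at 1.16 (SE 0.56) and the Polycomb methyltransferase gene Ezh2 at 0.51 (SE 0.32), and among negative ones to the Polycomb genes Suz12 at -0.51 (SE 0.38) and Bmi1 at -0.62 (SE 0.72), with edgeR adjusted p-values of 0.980 to 0.984. Rarg had 22, 49 and 70 counts for V5, 14, 25 and 30 in WT and 113 in the input. In CPM its V5 libraries spanned 21.3 to 43.0 and its WT libraries 10.9 to 18.8, with no overlap, and the input at 32.4 was above every WT library. Kat6a itself, in a count over its whole gene that cannot check the tag, had a log2 fold change of 0.28 (SE 0.28, adjusted p by edgeR = 0.982).

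Genes beside or within the Hox clusters formed a list of 26 symbols, of which 21 were in the table and 14 were tested. Of these 8 had a positive log2 fold change and 0 were called in either direction, with a median of 0.02. Lnpk, next to the posterior end of Hoxd, had 120, 83.4 and 99.2 CPM in V5 and 72.9, 61.0 and 75.1 in WT, with no overlap (log2 fold change 0.56, SE 0.28, adjusted p by edgeR = 0.980). Cbx1, which codes for a heterochromatin protein and lies near Hoxb, stood at 0.46 (SE 0.51). Skap2, an adaptor protein gene next to Hoxa, had 140, 171 and 185 CPM against 201, 196 and 209, also with no overlap but lower in V5 (log2 fold change -0.26, SE 0.19), and Calcoco2, an autophagy receptor gene, stood at -0.79 (SE 0.65). The 3 genes besides Lnpk had adjusted p-values of 0.980 to 0.983. Evx2, a homeobox gene between Lnpk and Hoxd13 that was picked after its values were seen, had too few reads for the test, with 4, 4 and 16 counts for V5, 1, 1 and 1 in WT and 16 in the input. Its 4.96, 3.51 and 4.87 CPM in V5 were close to the 4.59 of the input, and its WT values were 0.776, 0.753 and 0.399. Hotair and Hoxa11os, antisense RNA genes of the Hoxc and Hoxa clusters, were likewise untested and picked after their values were seen. They lay the other way without overlap. Hotair had 0, 1 and 6 counts for V5 against 3, 11 and 11, and Hoxa11os 1, 1 and 4 against 2, 6 and 8. A count of 0 allows up to 3.72 CPM in V5 replicate 1, above the 2.33 CPM of Hotair in WT replicate 1. Of all genes with at least 20 ChIP counts, 4.58% lay wholly above WT and 5.02% wholly below. Hoxa11os overlaps Hoxa11 over 15.3% of the span of Hoxa11, where reads were apparently not assigned, as in Hoxd3. In both Evx2 and Hoxc6 the input lay above every WT library, as the V5 libraries did.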

How the data were processed

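Per the file headers, the authors deposited 1 raw count per gene and library beside Entrez identifiers and gene lengths. From the submitters' processing notes, the tools were bcl2fastq, featureCounts and MACS with build mm10. Neither the aligner nor the treatment of duplicates is given in the sources used here. No peaks were used. Symbols and coordinates are from RefSeq GRCm38.p6. The members and lists were chosen with earlier results of these data known.

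The ChIP groups were tested in R 4.3.3 by the robust quasi-likelihood fit of edgeR 4.0.16, two-sided, with TMM factors and filterByExpr (minimum count 10), adjusted by Benjamini-Hochberg over 14575 genes at a threshold of 0.05. The code was tested on simulated data. DESeq2 1.42.0 and limma 3.58.1 (voom) were alternatives, with RLE factors, no filter, a replicate block, TMM library sizes, leaving out members that overlap other genes, pooled counts, and leaving out each library. Values per library are printed for tested genes, genes with at least 20 ChIP counts and no overlap between groups, the most-read gene of each cluster, and paralog groups 1 to 3. Of the companion lists, the 2 genes with the smallest p in each direction are named. Kat6a is given as well, and the untested Evx2, Hotair and Hoxa11os were picked after their values were seen. CPM is the count divided by the library total, times 1e6. Sums and ratios to the input have no test.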

Additional observations from a re-analysis of the deposited data

How the results depend on the processing

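No Hox gene was called under any alternative run. Over all genes, 9 of 24447 were called without a filter on low counts, 4 of 14575 with limma-voom and 1 of 14575 with the replicate block. Leaving out each library gave 0 to 2 calls. With 34 Hox genes fitted without a filter and 6 in the limma-voom and block fits, 0 Hox calls does not set the Hox genes apart. Same-numbered V5 and WT libraries did not deviate together (correlations 0.0138, 0.00562 and 0.0602), so the numbers do not pair them, and the replicate block gave 0 Hox calls. Without a library, the log2 fold change ranged from -0.33 to 1.23 for Hoxa10, -0.63 to 0.32 for Hoxb3, -1.40 to 0.45 for Hoxb4 and -1.21 to 0.97 for Hoxc9. It was 0.17 for Hoxb4 and -0.59 for Hoxc9 with limma-voom, and -0.06 for Hoxc9 with the replicate block; the cause was not tested. Leaving out a library gave 2 to 5 genes wholly above (7.57% to 11.2% of all genes) and 1 to 3 wholly below WT (8.06% to 17.6%), and TMM library sizes gave 2 below. With members that overlap no other gene alone, which are fewer, WT stood at 0.670 times the input for all Hox genes, 0.862 for Hoxa, 0.327 for Hoxd and 0.472 for paralog groups 1 to 3, V5 at 0.546 for paralog groups 1 to 3 and 0.698 for Hoxd, and V5 to WT at 1.53 for Hoxb. In that sum over paralog groups 1 to 3, Hoxd1 held 34 input counts, beside 3, 6 and 9 for Hoxa2, Hoxb1 and Hoxb2. Hoxd1 and Hoxd9 likewise held most input counts of the Hoxd sum. In a choice made after seeing the data, 14 to 22 of 28 genes had a ratio above 1 when a library was left out. Of the 38 genes, 32 had too few reads for the main test.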
